A study of Mus musculus with 8 samples.

Results

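Cytosolic sulfotransferases are the enzymes of the Sult gene families. In mouse liver, 10 of these genes were followed: Sult1a1, Sult1b1, Sult1c2, Sult1d1, Sult1e1, Sult2a1, Sult2a8, Sult3a1, Sult3a2 and Sult5a1. They were chosen by name, as the rows of the count table whose Ensembl identifiers carry these symbols, and their measured values played no part in the choice. The table holds 21 Sult genes, not counting pseudogenes, among 49671 gene identifiers. All 10 chosen genes were found.

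A cytosolic sulfotransferase moves a sulfonate group from the donor PAPS onto a hydroxyl or amino group of a small molecule. The product is usually more soluble in water and easier to excrete, and a sulfated hormone no longer binds its receptor. Family 1 enzymes act mostly on phenols, including thyroid hormones, catecholamines and estrogens, and family 2 enzymes on hydroxysteroids and bile acids. In rodent liver, several of these genes are known to differ between the sexes, under the control of the sex-specific pattern of growth hormone release.

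The libraries came from livers of C57BL/6 mice labelled post weaning, in 4 groups of 2: WT males, WT females, NT-KO males and NT-KO females. NT-KO mice are homozygous for a CRISPR/Cas9 deletion in Lbr that takes out part of the first intron and the usual start codon. The paper expects this to leave a truncated lamin B receptor without its N-terminal RS and Tudor domains. The line goes back to 1 founder bred to C57BL/6N, and the allele is present in every cell of the animal. The labels do not say that the libraries of a group came from separate animals, so the spread between them may be technical. This spread was far above counting error, with a chi-square per degree of freedom of 112 to 278 over the groups. Counting error alone would give a value near 1. How much of the spread is technical was not tested.

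Each library held between 45020377 and 64396291 counted reads. Summed reads of Uty, Kdm5d, Ddx3y and Eif2s3y, genes of the Y chromosome, and reads of the X-inactivation RNA Xist fitted the sex label in all 8 libraries. Levels are given in CPM, reads scaled to the library size and by TMM factors. Lbr, the targeted gene, had 6.54 to 7.99 CPM in the WT libraries and 12.8 to 14.0 CPM in the NT-KO libraries. A count over the whole gene does not see the deletion itself, so it shows only that the groups do not overlap. Albumin (Alb) and the other hepatocyte markers found in the table were abundant in every library, with summed levels of 66755 to 100874 CPM over 5 genes.

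One library stood apart. Male WT replicate 2 held low counts of genes that the other male libraries almost lacked: 24 reads of Sult2a1 against 1 or 2, 49 of Sult3a1 against 1 to 4, and 7 of Sult3a2 against 0. Expressed as a share of the mean over the 4 female libraries, these were 0.245%, 0.391% and 0.362%. Xist stood at 0.364% of the female mean in this library and at 0.0820% to 0.149% in the other male libraries. The female-typical genes A1bg and Cyp3a41b stood at 0.447% and 0.295% there and at no more than 0.0337% in the others. Whether these reads came from this liver or from another library was not tested, nor was their part in the results. Ratios of females to males in WT that rest on them are given below with and without this library.

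The positions, on GRCm38, place most of the members in clusters. Sult1b1, Sult1d1 and Sult1e1 lie side by side on the minus strand of chromosome 5 (87513339 to 87591594). Sult2a1 (chromosome 7, 13796246 to 13837409) and Sult2a8 (14410686 to 14446769) belong to a cluster of 8 Sult2a genes that spans 13623967 to 14494230. Sult3a2 (33766424 to 33786704, minus strand) and Sult3a1 (33857721 to 33879532, plus strand) are neighbours on chromosome 10. Sult1a1 (chromosome 7, 126672865 to 126676432), Sult1c2 (chromosome 17, 53829637 to 53846339) and Sult5a1 (chromosome 8, 123140192 to 123158315) stand outside these clusters.

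Likeness of sequence limits how well reads can be assigned within a cluster. The coding sequences of Sult3a1 and Sult3a2, each 879 bases long, were identical in 90.9% of aligned positions. Those of Sult2a1 and Sult2a5, a gene of the same cluster, were identical in 94.9%. Sult2a8 matched Sult2a1 in only 68.8%. Of all 50-base stretches in its transcripts, Sult2a1 shared 33.2% with another gene, mostly Sult2a2. Sult3a1 shared 6.15% and Sult3a2 7.72%, each with the other, while Sult1b1, Sult1d1 and Sult1e1 shared none. How reads with several matches were counted is not given in the sources used here, so the values of Sult2a1 are uncertain in their split from its paralogs. Sult1a1 shared 7.36% of its stretches with another gene, mostly Gm6939. It overlaps Sgf29 on the opposite strand over 61 exon bases, where reads from the pair can be told apart only if they were counted by strand.

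The stretches of 250 bases before the transcription start are shown for Sult3a1 and Sult3a2, which rose together in females, and for Sult2a8, the member that was lower in females. They are RefSeq sequences on GRCm38.p6, written 5′ to 3′ along the gene's own strand, and 9 of the 10 members had an entry. Capitals mark matches on either strand to any of 4 motifs: TTCNNNGAA, bound by STAT5, AGGTCA, the core element of many nuclear receptors, TATAAA, the TATA box, and the palindromic HNF1 motif.
Sult3a1 (chr10:33857472-33857721, plus strand): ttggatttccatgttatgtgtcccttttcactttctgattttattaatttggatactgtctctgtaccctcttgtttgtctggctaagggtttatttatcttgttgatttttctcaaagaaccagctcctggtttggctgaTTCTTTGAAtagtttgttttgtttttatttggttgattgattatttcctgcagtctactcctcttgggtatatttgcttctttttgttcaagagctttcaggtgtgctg
Sult3a2 (chr10:33782116-33782365, minus strand): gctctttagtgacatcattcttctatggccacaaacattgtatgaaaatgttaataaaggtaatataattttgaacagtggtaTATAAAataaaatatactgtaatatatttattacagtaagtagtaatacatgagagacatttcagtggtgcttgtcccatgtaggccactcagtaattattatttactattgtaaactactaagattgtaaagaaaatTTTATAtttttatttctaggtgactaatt
Sult2a8, first entry (chr7:14446588-14446837, minus strand): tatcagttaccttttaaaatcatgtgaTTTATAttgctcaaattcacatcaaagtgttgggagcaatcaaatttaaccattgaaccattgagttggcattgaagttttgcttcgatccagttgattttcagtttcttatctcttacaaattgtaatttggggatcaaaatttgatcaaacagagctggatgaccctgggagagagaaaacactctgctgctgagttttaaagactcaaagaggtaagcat
Sult2a8, second entry (chr7:14438552-14438801, minus strand): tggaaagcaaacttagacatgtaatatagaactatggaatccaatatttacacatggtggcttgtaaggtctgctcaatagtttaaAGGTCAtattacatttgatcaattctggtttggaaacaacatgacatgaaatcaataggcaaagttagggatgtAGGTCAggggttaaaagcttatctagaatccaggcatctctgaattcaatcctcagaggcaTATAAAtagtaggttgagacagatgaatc

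With the last base before the start as position -1, the Sult3a1 window held 1 match to TTCNNNGAA, at -109 to -101. The Sult3a2 window held TATAAA at -167 to -162 and, on the other strand, at -29 to -24. The first Sult2a8 entry held TATAAA on the other strand at -223 to -218. The second held AGGTCA at -164 to -159 and at -90 to -85 and TATAAA at -29 to -24. Of the other members, Sult1b1 and Sult1e1 each held 1 AGGTCA, and none of the 4 motifs was found in the windows of Sult1a1, Sult1c2, Sult1d1 and Sult5a1. None of the 4 motifs overlaps another in these matches. Among 32851 RefSeq promoter windows of the same length, 7.02% held TTCNNNGAA, 14.0% AGGTCA, 12.4% TATAAA and 0.00913% the HNF1 motif. The windows of Sult3a1 and Sult3a2 were identical in 47.6% of aligned positions, far less than their coding sequences. The RefSeq starts of Sult3a2 and of both Sult2a8 entries lie inside the genes as Ensembl draws them, so these windows depend on the annotation.

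The 10 genes covered a wide range of levels, and the order differed between the sexes. Per kilobase of exon, Sult2a8, which sulfates bile acids, was the highest in male WT liver at 301 CPM per kb ± 3.62 (SD, n = 2). Sult1a1, the main phenol sulfotransferase of liver, followed with 159 ± 14.5, and Sult1d1, which acts on catecholamines, with 67.3 ± 8.76. Sult1b1, a thyroid hormone sulfotransferase, stood at 10.2 ± 1.46 and Sult5a1 at 5.27 ± 0.725, and the other 5 members were near or below 1 CPM per kb with overlapping ranges.

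In female WT liver the order per kilobase was led by Sult1a1 with 339 CPM per kb ± 34.0 (SD, n = 2). Sult2a1, a hydroxysteroid sulfotransferase that acts on DHEA and bile acids, had 214 ± 145, and its range overlapped those of Sult1a1 and of Sult2a8 (151 ± 1.63). Sult3a1, an amine sulfotransferase, came next with 90.5 ± 38.0, and its range overlapped that of Sult2a1. Sult1d1 had 59.2 ± 3.54. The ranges of Sult1b1 and Sult5a1, of Sult5a1 and Sult3a2, and of Sult3a2 and Sult1c2 overlapped, at means between 6.18 and 9.73. Sult1e1, the estrogen sulfotransferase, was the lowest with 0.342 ± 0.183.

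**Figure D1:**
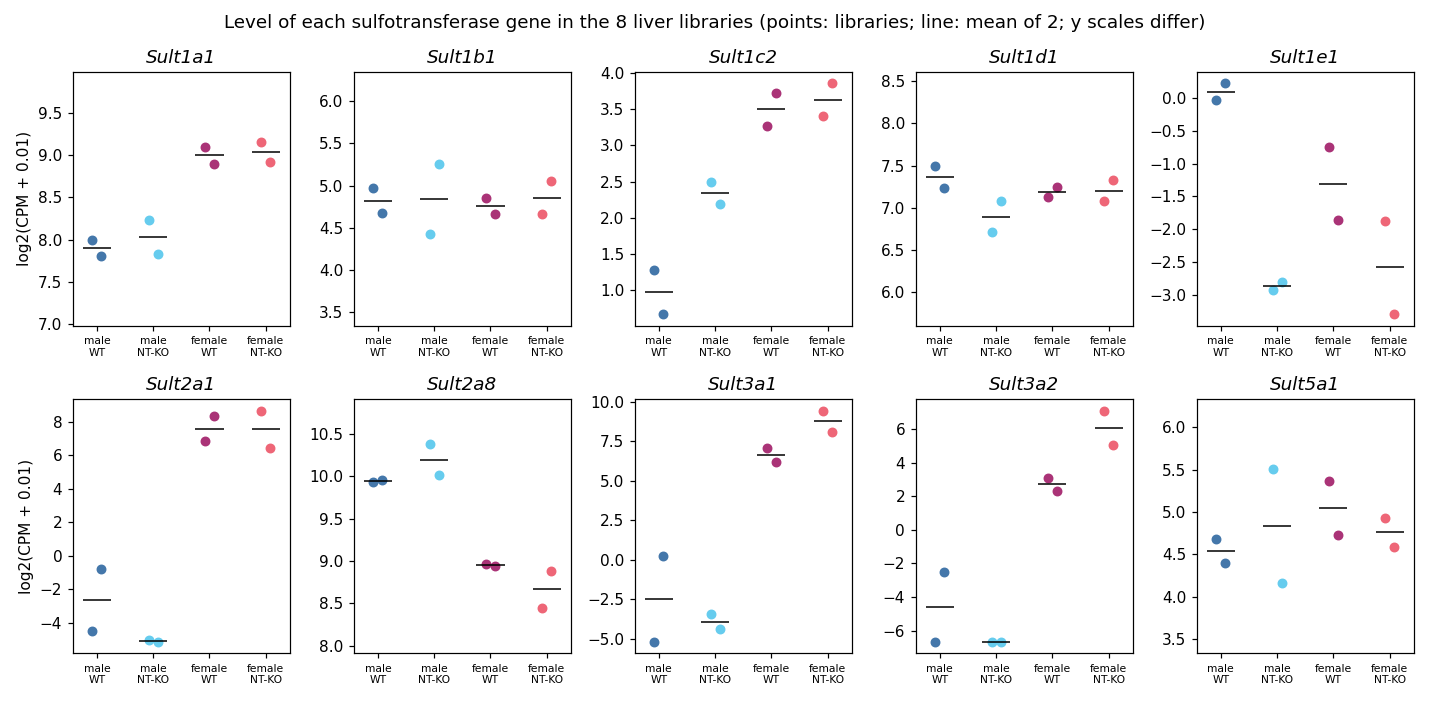
Level of each of the 10 genes as log2(CPM + 0.01) in the 8 libraries, with 1 panel per gene, a point per library and a line at the mean of the 2 libraries of a group; the y scales differ. Sult2a1, Sult3a1 and Sult3a2 lie far apart between the sexes, Sult2a8 is the panel with higher male points, and Sult1b1, Sult1d1 and Sult5a1 overlap between the sexes.

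Summed over the 10 genes, the level per kilobase was 531 to 671 CPM per kb in the male libraries and 835 to 1702 in the female libraries. Sult2a8 made up 53.2% to 60.7% of this sum in males and 6.20% to 18.2% in females. Sult1a1 made up 27.9% to 30.2% in males and 22.2% to 43.5% in females. Sult3a1 ranged from 6.81% in female WT replicate 2 to 35.3% in female NT-KO replicate 1, the library with the highest sum. Sult2a1 ranged from 9.16% in female NT-KO replicate 2 to 33.8% in female WT replicate 2.

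**Figure D2:**
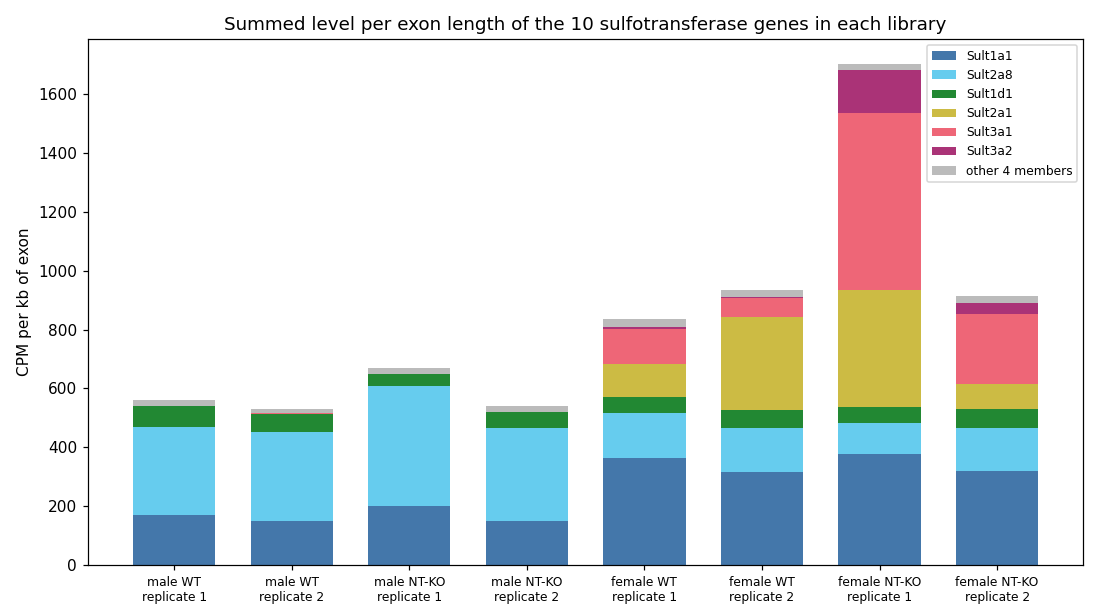
Stacked level of the 10 genes in each library, in CPM per kb of exon. Male libraries are mostly Sult2a8 and Sult1a1, with sums of 531 to 671, and female libraries add Sult2a1, Sult3a1 and Sult3a2, with sums of 835 to 1702.

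The first comparison asked how the genes differed between females and males, over both genotypes and within each. Sult2a1, Sult3a1, Sult3a2, Sult1c2 and Sult1a1 were higher in females and Sult2a8 was lower. Calls are from edgeR's quasi-likelihood F-test over 13117 genes, with a threshold of 0.05 on the Benjamini-Hochberg FDR and of 1 on the absolute log2 fold change. Over both genotypes 6 of the 9 members tested were called, 5 higher and 1 lower, where 4.19% of all genes were called (2.24% higher and 1.95% lower). The median log2 fold change was 1.04 over these members and -0.01 over all genes tested. Sult2a1, Sult3a1 and Sult3a2 passed the minimum of 1 CPM through their female libraries. For them a difference between the sexes was thus a condition of being tested, and the counts and median above include them. Sult1e1 did not reach the minimum and was not tested.

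Sult2a1 had 6211 and 21943 reads in WT females and 22949 and 5592 in NT-KO females, against 2 and 24 in WT males and 1 and 1 in NT-KO males. In CPM the 4 female libraries spread from 85.5 to 403 and all male libraries lay at or below 0.566. The groups were far apart in both genotypes, and the female libraries of 1 genotype differed by up to 4.71-fold. The test gave a log2 fold change of 9.62 in WT (SE 1.23, FDR 0.00502). As a ratio of summed reads at equal library size, females were 874-fold above males in WT, with a 95% interval of 596 to 1338 that covers counting error only. Without male WT replicate 2 the ratio was 6499 (1799 to 53668), since 2 male reads remained. In NT-KO the ratio was 11854 (3281 to 97887).

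Sult3a1 had 7414 and 5005 reads in WT females and 39556 and 18180 in NT-KO females, against 1 and 49 in WT males and 4 and 2 in NT-KO males. Females were 200-fold above males in WT (152 to 270), and 5734-fold (1029 to 226490) without male WT replicate 2, where 1 male read remained. The log2 fold change in WT was 7.57 (SE 1.11, FDR 0.00997). In NT-KO the ratio was 7993 (3672 to 21782, FDR 0.00313). The size of the difference between the sexes in WT thus rested on the reads of male WT replicate 2. Its direction could not turn without that library, as male WT replicate 1 held fewer reads still.

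Sult3a2, the neighbour of Sult3a1, had 463 and 339 reads in WT females and 7746 and 2157 in NT-KO females. In males it had 0 and 7 reads in WT and none in NT-KO. Females were 92.4-fold above males in WT (44.7 to 231, FDR 0.0236), or at least 123-fold against a floor of 3 reads without male WT replicate 2. The call in WT was lost when any 1 of the 4 WT libraries was left out, and with robust dispersion. In NT-KO they were at least 2742-fold above a floor of 3 reads over the group (FDR 0.00414). Every female library lay above every male library for both Sult3a genes.

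Sult1c2, a family 1 enzyme that acts on phenolic compounds, was at 2.42 and 1.58 CPM in WT males and 9.60 and 13.2 CPM in WT females. In NT-KO it was at 5.64 and 4.57 CPM in males and 10.6 and 14.5 CPM in females. Every female library was above every male library, and the gap was wider in WT. The log2 fold change was 1.90 over both genotypes (SE 0.202, FDR 0.00104), 2.50 in WT (SE 0.294, FDR 0.00331) and 1.30 in NT-KO (SE 0.278), where the FDR of 0.0714 missed the threshold. In NT-KO it was called by the likelihood ratio test (FDR 0.00257), where 3.13% of all genes were called, and by DESeq2 (FDR 0.000918), where 3.06% were.

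Sult1a1 was at 255 and 225 CPM in WT males, 301 and 227 in NT-KO males, 547 and 475 in WT females and 569 and 483 in NT-KO females. The sexes did not overlap, as for 16.1% of all genes, and within a sex the genotypes did. The log2 fold change of females over males was 1.04 over both genotypes (SE 0.149, FDR 0.00516) and 1.09 in WT (SE 0.212, FDR 0.0278). In NT-KO it was 1.00 (SE 0.211) with an FDR of 0.0674. The value lies close to the minimum fold change, and the call over both genotypes was lost without male WT replicate 2, male NT-KO replicate 2, female WT replicate 1 or female NT-KO replicate 1.

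Sult2a8 was the member with higher levels in males. It was at 979 and 996 CPM in WT males and 1337 and 1031 in NT-KO males, against 500 and 493 in WT females and 347 and 473 in NT-KO females. The lowest male library was thus above the highest female library. The log2 fold change of females over males was -1.26 over both genotypes (SE 0.158, FDR 0.00270) and -1.53 in NT-KO (SE 0.225, FDR 0.0125). In WT it was -0.99 (SE 0.222, FDR 0.0406), which passed the FDR and missed the minimum fold change.

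Within the genotypes, 5 of 9 members were called in WT, all higher in females, where 4.68% of all genes were called (2.55% higher and 2.13% lower). In NT-KO 4 of 9 were called, 3 higher and 1 lower, where 1.78% of all genes were called (0.839% higher and 0.945% lower). With robust dispersion this fell to 2 of 9, Sult2a8 and Sult3a1, where 1.61% were. Sult2a1, Sult3a1 and Sult3a2, tested through their female libraries, were among the calls in WT and made up the higher calls in NT-KO. For them the share of all genes is no fair measure, as a sex difference was a condition of being tested. That Sult1a1 and Sult1c2 were called in WT alone does not show that the genotypes differ, and the test of that difference is given with the NT-KO results.

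Sult1b1, Sult1d1 and Sult5a1 did not pass the test. Their log2 fold changes of females over males, over both genotypes, were -0.05 for Sult1b1 (95% interval -0.43 to 0.33), 0.06 for Sult1d1 (-0.22 to 0.33) and 0.16 for Sult5a1 (-0.39 to 0.72). Sult1b1 lay between 21.6 and 38.1 CPM in all libraries, Sult1d1 between 105 and 181 CPM and Sult5a1 between 17.8 and 45.5 CPM. Both extremes of Sult1b1 and of Sult5a1 were in the male NT-KO libraries.

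**Figure D3:**
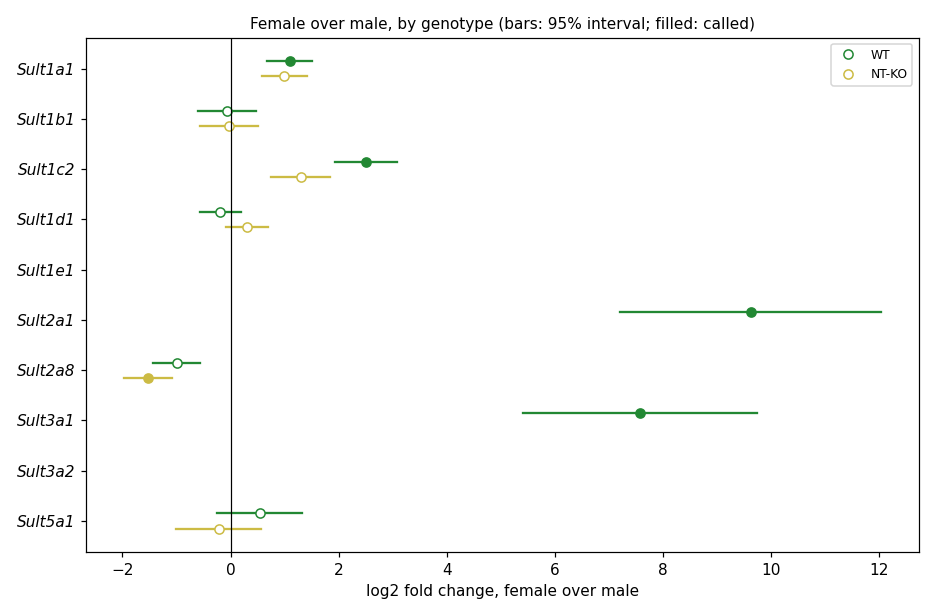
Log2 fold change of females over males in WT and in NT-KO for the members with over 10 reads in each group compared, with 95% intervals from the fit and filled points for calls. Sult1a1, Sult1c2, Sult2a1 and Sult3a1 are filled to the right in WT and Sult2a8 is filled to the left in NT-KO; Sult1e1 and Sult3a2, and Sult2a1 and Sult3a1 in NT-KO, are not drawn.

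Sult1e1 inactivates estrogens by sulfation. It had 55 and 49 reads in WT males, 6 and 7 in NT-KO males, 32 and 18 in WT females and 15 and 6 in NT-KO females, or at most 1.16 CPM. Male WT libraries were the highest of the 8. In WT, females were at 0.388 times the male level (0.271 to 0.549 from counting error alone). In NT-KO the ratio was 1.34 (0.641 to 2.92), and the interval holds 1.

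The other Sult2a genes of the cluster on chromosome 7 were set beside the members. Of 11 further Sult genes in the table, 6 were tested, Sult2a2 to Sult2a7. All 6 were higher in females over both genotypes (FDR 0.000263 to 0.0134), where 4.12% of all genes were past the FDR and higher. Sult2a2 to Sult2a6 too passed the filter through female libraries, and Sult2a7 also through male ones. For Sult2a2 to Sult2a6 that share is thus no fair measure, as a sex difference was a condition of being tested. Sult2a7 was expressed in both sexes, with 118 and 124 reads in WT males and 2191 and 4786 in WT females, and a log2 fold change of 4.02 over both genotypes (SE 0.421, FDR 0.00101). Sult2a8 lies 18281 bases from Sult2a7 and 155815 bases from Sult2a6, and was the only one of the 8 genes of this cluster with a call in the other direction. In the cluster on chromosome 5, neither Sult1b1 nor Sult1d1 was called, and Sult1e1 was not tested.

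Female libraries of 1 genotype differed widely for Sult2a1. Its level in female WT replicate 2 was 2.84 times that in replicate 1, and in female NT-KO replicate 1 it was 4.71 times that in replicate 2. Sult2a2 to Sult2a6 had the same split, with both higher libraries above both lower ones for all 5 genes. The share of all genes with this split was not counted, so it is not shown to be particular to these genes. The ratios within a genotype ran from 2.11 for Sult2a6 to 19.4 for Sult2a3. Sult2a7 and Sult2a8 did not share it, nor did Sult3a1 and Sult3a2, whose lowest female library was WT replicate 2. The shared stretches of sequence given above can carry reads between Sult2a1 and Sult2a2 to Sult2a6, and their part in this likeness was not tested.

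**Figure D4:**
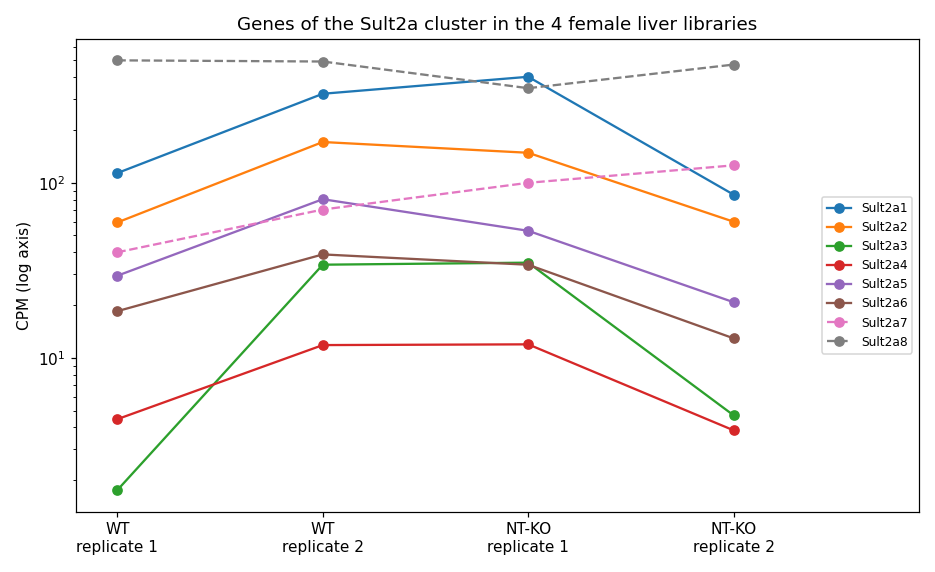
Level in CPM, on a log axis, of the 8 genes of the Sult2a cluster in the 4 female libraries; levels of different genes are not per length and are not to be compared. Sult2a1 to Sult2a6 (solid lines) are all higher in WT replicate 2 and NT-KO replicate 1 than in the other libraries, and Sult2a7 and Sult2a8 (dashed) are not.

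The genes with the pattern most like Sult2a1 over the 8 libraries, by the root mean square difference of centred log2 CPM, were Sult2a2 (0.277), Cyp3a41b (0.664) and A1bg (0.792). For Sult3a1 they included Cyp3a41b (0.889) and A1bg (0.977). All are genes with few reads in the male libraries, and the measure is a description over 8 libraries of 2 sexes.

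The second comparison asked how NT-KO liver differed from WT in males. No member was called, by edgeR's quasi-likelihood F-test, where 0.0152% of all genes were called, and 2 of 9 had an unadjusted p under 0.05, where 11.5% of all genes did. Sult1c2 was higher in both NT-KO libraries (5.64 and 4.57 CPM) than in both WT libraries (2.42 and 1.58 CPM), with a log2 fold change of 1.34 (SE 0.289, FDR 0.197). It was called by edgeR's likelihood ratio test (FDR 0.00732), where 1.56% of all genes were called, and by DESeq2 (FDR 0.00306), where 1.66% were. Sult1d1 was at 181 and 150 CPM in WT and at 105 and 135 CPM in NT-KO, with a log2 fold change of -0.46 (SE 0.197, FDR 0.426). Groups that do not overlap are common in this comparison, at 38.9% of all genes.

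Sult1e1 had 8.21 times more reads in WT males than in NT-KO males at equal library size (4.60 to 15.9, counting error only). Both WT libraries, with 0.971 and 1.16 CPM, were above both NT-KO libraries, with 0.122 and 0.133 CPM. Whether it is called depended on the filter. With every gene of at least 1 read, the same test gave a log2 fold change of -3.03 (SE 0.541, FDR 3.20e-06), where 2.24% of all genes were called, with Sult1c2, Sult2a1 and Sult3a1 among them, the last 2 through 24 and 49 reads in male WT replicate 2. With edgeR's filterByExpr it gave -3.04 (SE 0.595, FDR 0.164), where 0.0339% were called.

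Sult1a1, Sult1b1 and Sult5a1 overlapped between male NT-KO and male WT. Sult2a8 was at 1337 and 1031 CPM in NT-KO and 979 and 996 in WT, with a log2 fold change of 0.26 (95% interval -0.17 to 0.69, FDR 0.695). In females its NT-KO libraries were below its WT libraries, and 6.66% of all genes had such opposite separations in the sexes. Sult2a1, Sult3a1 and Sult3a2 had 1 to 4 reads or none in the male NT-KO libraries and in male WT replicate 1. Their counts in male WT replicate 2 were the only ones above that, so no fold is given for them.

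In females no member was called either, by the quasi-likelihood F-test, where 0.00762% of all genes were called, and 2 of 9 had an unadjusted p under 0.05, where 1.55% of all genes did. Sult3a1 was at 136 and 73.5 CPM in WT and 695 and 278 CPM in NT-KO. Sult3a2 was at 8.47 and 4.98 CPM in WT and 136 and 33.0 CPM in NT-KO. Both genes were higher in both NT-KO libraries, and the libraries of the groups did not overlap for 26.4% of all genes. The log2 fold change was 2.22 for Sult3a1 (SE 0.826, 95% interval 0.60 to 3.84) and 3.65 for Sult3a2 (SE 0.740, 2.20 to 5.10), and the FDR was 1 for both. The likelihood ratio test called Sult3a2 (FDR 0.0280), where 0.0839% of all genes were called, and DESeq2 called no member, where 0.0381% were. With no filter beyond 1 read the quasi-likelihood test called both Sult3a genes, where 0.579% of all genes were called.

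Female NT-KO replicate 1 carried much of the rise in the Sult3a genes. Without it, the log2 fold changes were 1.41 for Sult3a1 and 2.30 for Sult3a2, and without female NT-KO replicate 2 they were 2.73 and 4.34. The direction was the same when any single library was left out. This follows from both NT-KO libraries lying above both WT libraries, and so adds no support.

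The other members did not pass the test in females, and their 95% intervals all held 0. The log2 fold changes were 0.04 for Sult1a1 (-0.37 to 0.45), 0.11 for Sult1b1 (-0.42 to 0.65), 0.13 for Sult1c2 (-0.40 to 0.66) and 0.02 for Sult1d1 (-0.36 to 0.41). They were 0.16 for Sult2a1 (-1.39 to 1.72), -0.28 for Sult2a8 (-0.71 to 0.16) and -0.31 for Sult5a1 (-1.10 to 0.48). The interval of Sult2a1 was the widest, as its libraries spread most within each genotype. Sult1e1 in NT-KO females was at 0.421 times its level in WT females (0.240 to 0.715, counting error only), with 0.585 and 0.264 CPM in WT and 0.263 and 0.0918 CPM in NT-KO.

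**Figure D5:**
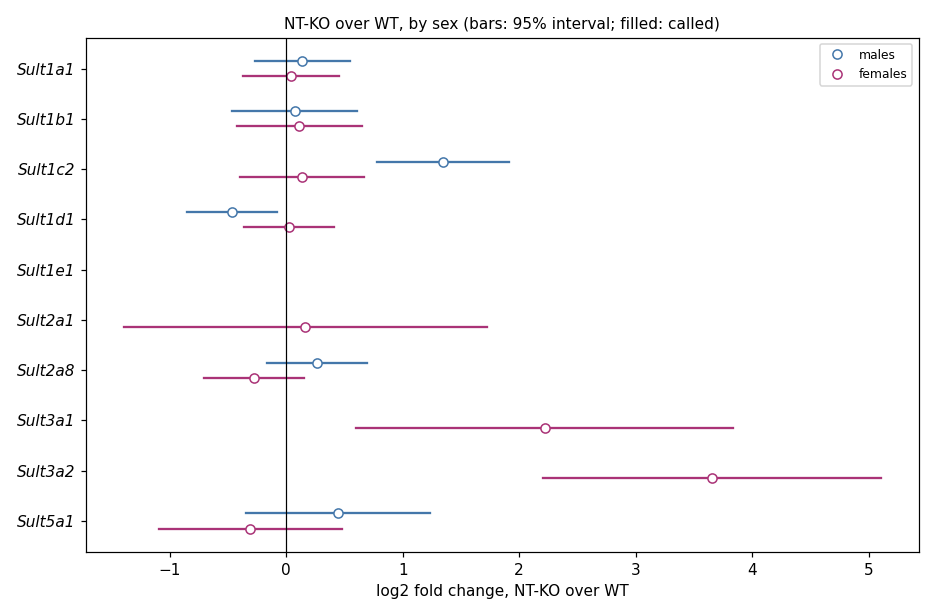
Log2 fold change of NT-KO over WT in males and in females for the members with over 10 reads in each group compared, with 95% intervals from the fit; open points mark that none was called. Sult1c2 in males (1.34) and Sult3a1 (2.22) and Sult3a2 (3.65) in females lie farthest from 0; Sult1e1, and in males Sult2a1, Sult3a1 and Sult3a2, are not drawn.

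The third comparison asked whether the NT-KO effect differed between the sexes, as an interaction in the same fit. No member passed the FDR in the quasi-likelihood test, where 0.0152% of all genes did, and 3 of 9 had an unadjusted p under 0.05, where 7.20% of all genes did. For Sult1c2 the NT-KO effect was lower in females than in males by 1.21 on the log2 scale (SE 0.394, FDR 0.610), the same contrast as the difference between its sex effects in WT and NT-KO. Sult3a1 had a p of 0.0138 (FDR 0.596) and Sult3a2 a p of 0.0479 (FDR 0.688) in edgeR's quasi-likelihood test. Their male side rests on 50 against 6 reads and on 7 against 0 reads, nearly all in male WT replicate 2, and no value without this library is given for them. The likelihood ratio test passed Sult3a2 (FDR 0.00326), where 0.351% of all genes passed. With no filter beyond 1 read, Sult2a1, Sult3a1 and Sult3a2 passed the quasi-likelihood test, where 1.86% of all genes did.

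The genes that supply sulfate and the donor PAPS were described from a list of 13, of which 12 were tested. Over both genotypes 1 was past an FDR of 0.05 between the sexes, where 7.84% of all genes were (4.12% higher and 3.72% lower). This was Papss2, the main PAPS synthase of liver, at 150 and 113 CPM in WT males, 228 and 223 in NT-KO males, 249 and 336 in WT females and 336 and 364 in NT-KO females. Its log2 fold change of females over males was 0.89 (SE 0.152, FDR 0.0116). No gene of the list was past the FDR for NT-KO against WT in either sex, by edgeR's quasi-likelihood test. With the minimum fold, that test called only 0.0152% of all genes in males and 0.00762% in females. At an unadjusted p under 0.05 there were 2 in males and 0 in females, where 11.5% and 1.55% of all genes were. Median log2 fold changes of the list were -0.13 between the sexes, 0.08 for NT-KO in males and 0.06 in females.

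Sulfatases remove sulfate groups. Of 10 tested genes of this list, 1 was past the FDR between the sexes, the lysosomal arylsulfatase Arsa, where 7.84% of all genes were. Arsa was at 22.4 and 17.2 CPM in WT males, 32.7 and 33.0 in NT-KO males, 10.3 and 10.3 in WT females and 8.89 and 10.4 in NT-KO females. Its log2 fold change of females over males was -1.36 (SE 0.124, FDR 0.000483). Among 10 genes of sulfur amino acid catabolism, Fmo1 was higher in females (log2 fold change 1.08, SE 0.143, FDR 0.00349) and Csad lower (-1.76, SE 0.281, FDR 0.00883). No gene of either list was past the FDR for NT-KO against WT in either sex, by edgeR's quasi-likelihood test. With the minimum fold, that test called only 0.0152% of all genes in males and 0.00762% in females. At an unadjusted p under 0.05 there were 1 sulfatase and 2 genes of sulfur amino acid catabolism in males, where 11.5% of all genes were. In females there were 0 of either list, where 1.55% of all genes were.

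Of 13 genes of growth hormone signalling and its sex-dependent factors, 3 were past the FDR between the sexes, where 7.84% of all genes were, all higher in females: the prolactin receptor Prlr (2.6, SE 0.129), the female-specific repressor Cux2 (7.28, SE 0.409) and Trim24 (1.01, SE 0.163). Of 17 male-biased liver genes 15 were past the FDR and lower in females, and of 17 female-biased genes 16 were past it and higher. Both of these lists were picked for sex bias, with earlier results of these data known. Their outcome between the sexes was thus set by the choice. None of the 3 lists of this paragraph had a gene past the FDR for NT-KO against WT in either sex, by edgeR's quasi-likelihood test. With the minimum fold, that test called only 0.0152% of all genes in males and 0.00762% in females. The lack of such genes therefore does not show that the lists were unchanged. At an unadjusted p under 0.05 there were, in males, 2 of the growth hormone list, 5 male-biased and 6 female-biased genes, against 11.5% of all genes. In females there were 3 male-biased genes and 0 of the other lists, against 1.55% of all genes.

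Markers of other cell types were read beside these results. In bulk liver, fewer cells of a type and less RNA per cell cannot be told apart. Summed red blood cell markers were lower in the 4 female libraries (170 to 320 CPM) than in the 4 male libraries (370 to 947 CPM). Of these markers 2 of 5 were past the FDR, where 7.84% of all genes were. For NT-KO against WT their median log2 fold change was -1.07 in males and 0.43 in females, with none past the FDR. At an unadjusted p under 0.05 there were 2 in males and 0 in females, where 11.5% and 1.55% of all genes were. Summed Kupffer cell markers were at 124 to 222 CPM in the male and 235 to 279 CPM in the female libraries, and endothelial markers at 93.8 to 143 CPM and 147 to 166 CPM. In both lists the summed levels of the sexes did not overlap, as for 16.1% of single genes, and no marker was past the FDR. The median log2 fold change of females over males was 0.49 for Kupffer cell markers and 0.37 for endothelial markers, against -0.01 over all genes. Stellate cell markers overlapped between the sexes (74.4 to 98.5 CPM in males and 85.1 to 91.6 CPM in females), with none past the FDR. Cholangiocyte markers overlapped as well (26.8 to 49.1 CPM and 34.7 to 60.2 CPM), with Epcam past the FDR and higher in females.

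Markers of other organs were read in the same way. Pancreas markers summed to 28.0 to 38.6 CPM in males and 13.7 to 20.9 CPM in females, nearly all of it Cela1 (log2 fold change of females over males -1.02, FDR 0.00856), while the defining markers Cela3b, Prss2, Cpa1 and Pnlip had 0 or 1 read. Small intestine markers summed to 95.4 to 196 CPM in males and 207 to 378 CPM in females, nearly all of it Apoa4, an apolipoprotein that liver also makes (1.28, FDR 0.0112), and Fabp2. The defining intestinal markers Lct and Sis had 0 or 1 read. Kidney markers summed to at most 3 reads in a library. Of the circadian clock genes, 3 of 15 were past the FDR between the sexes, where 7.84% of all genes were. In males 7 of 15 had an unadjusted p under 0.05 for NT-KO against WT, where 11.5% of all genes did. Among these 7 was Arntl at -1.35 (FDR 0.274). The part of these cell types, blood content and sampling time in the Sult values was not tested.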

How the data were processed

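Liver RNA was measured in 8 libraries, 2 for each sex and genotype, made per the labels with Trizol and the Illumina TruSeq kit. The authors trimmed reads with cutadapt, aligned them to GRCm38 with STAR 2.6.1a and deposited whole-number counts per Ensembl gene from featureCounts, with no normalization. Strand and multimapping settings are not given in the sources used here. Of 49671 gene identifiers, 49412 matched the annotation used for names.

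Genes that reached 1 CPM in 2 or more libraries were tested, without rRNA, miRNA and mitochondrial genes (13117 genes, 9 of the 10 members). Libraries were scaled by TMM, and a model with 4 group means was fitted with edgeR 4.0.16 in R 4.3.3 (quasi-likelihood F-test, two-sided). A call needed an FDR of 0.05 or less together with an absolute log2 fold change above 1, except that the interaction was called by FDR alone. SE is the log2 fold change divided by the square root of F, and its 95% interval uses the normal quantile, which makes it narrower than the F-test implies. A fold is given only where each group compared has over 10 summed reads. Otherwise summed reads are compared with an exact 95% interval, which covers counting error only, or with a floor of 3 reads. The quasi-likelihood test was first tried on simulated counts, for females against males over both genotypes and for NT-KO against WT in males. These counts had the same spread for all genes, unlike the data. The other comparisons and tests were not simulated. Alternatives were edgeR's likelihood ratio test (the test of the study's methods), DESeq2 1.42.0, other scalings and filters, a replicate block, robust dispersion, fewer libraries and other thresholds, and, added after seeing the data, ratios without male WT replicate 2.

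All members are named. Of the lists, at most 4 genes per list and comparison past the FDR are named, by smallest FDR, and the 3 genes most like each of the 2 members with the smallest FDR between the sexes. Some genes that this rule names, and 1 list, are not reported here. Genes named for their reads in male WT replicate 2 and the clock gene Arntl were chosen after their values were seen. The members and lists were chosen with earlier results of these data known.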

Additional observations from a re-analysis of the deposited data

Results flagged for a closer look

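For Sult2a8 the libraries of the genotypes separated in opposite directions in the sexes. Both male NT-KO libraries (1337 and 1031 CPM) were above both male WT libraries (979 and 996 CPM), and both female NT-KO libraries (347 and 473 CPM) were below both female WT libraries (500 and 493 CPM). The interaction was -0.54 on the log2 scale, females minus males (SE 0.311, FDR 0.729 in edgeR's quasi-likelihood test), so the difference did not pass the test. Of all genes tested, 6.66% showed such an opposite separation.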

How the results depend on the processing

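Where 1 group of 2 libraries is compared with another, an exact test of a single gene cannot go below p = 0.333. Calls in such comparisons thus rest on the spread shared across genes. The limit does not hold for females against males over both genotypes, with 4 libraries a sex, though that test uses the shared spread too. The number of members called over both genotypes lay between 5 and 6 when a library was left out. In WT it fell from 5 to 3 at an FDR of 0.01 and lay between 3 and 5 without a library, with 3 left without either male WT or either female WT library (Sult1a1 and Sult3a2 lost), and 6 were called with no filter (Sult1e1 added) or with filterByExpr or no minimum fold (Sult2a8 added). In NT-KO it fell from 4 to 2 with robust dispersion and lay between 2 and 4 without a library, with 2 left without male NT-KO replicate 1. It was 5 by the likelihood ratio test, DESeq2 and no filter (Sult1c2 added) and 6 with library size only (Sult1a1 and Sult1c2 added). For NT-KO against WT in males, 0 members became 1 by the likelihood ratio test and DESeq2 (Sult1c2) and 4 with no filter (Sult1c2, Sult1e1, Sult2a1 and Sult3a1). In females 0 became 1 by the likelihood ratio test (Sult3a2) and 2 with no filter (Sult3a1 and Sult3a2), and for the difference between the sexes 1 by the likelihood ratio test (Sult3a2) and 3 with no filter (Sult2a1, Sult3a1 and Sult3a2). The cause of these changes was not tested.

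Over all genes, the quasi-likelihood test called 2 for NT-KO in males, 1 in females and 2 for the difference. The likelihood ratio test called 205, 11 and 46, DESeq2 218, 5 and 62, and no filter 667, 172 and 552. In females 0 genes were called with a filter on the group mean or an FDR of 0.01. In males 6 were called with filterByExpr or robust dispersion, and in either sex 0 with its 4 libraries alone. For females against males over both genotypes, 550 became 1241 with no filter, 309 at an FDR of 0.01 and 1028 with no minimum fold. In WT 614 became 1039, 987, 1736 and 159, and in NT-KO 234 became 410, 401, 825 and 121, by the likelihood ratio test, DESeq2, no filter and an FDR of 0.01.

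Replicate numbers did not pair the samples: deviations of same-numbered libraries correlated between -0.181 and 0.209. With the replicate block 6 members were called between the sexes over both genotypes, 5 in WT, 5 in NT-KO (Sult1a1 with them, log2 fold change 1.00, FDR 0.0485) and 0 for NT-KO against WT.

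With library size alone the sign turned for Sult1b1 between the sexes (0.077 over both genotypes, 0.10 in WT, 0.048 in NT-KO) and for the difference (-0.057), and for Sult1d1 in female NT-KO against WT (-0.0029). None of these was called. Leaving out a library turned the sign of values near 0. For the difference between the sexes the ranges of log2 fold changes were Sult1a1 -0.27 to 0.12, Sult1b1 -0.31 to 0.52, Sult5a1 -1.27 to 0.075. For females against males in NT-KO the ranges of log2 fold changes were Sult1b1 -0.38 to 0.44, Sult5a1 -0.73 to 0.61. For females against males in WT the ranges of log2 fold changes were Sult1b1 -0.21 to 0.075. For females against males over both genotypes the ranges of log2 fold changes were Sult1b1 -0.23 to 0.18, Sult1d1 -0.029 to 0.15, Sult5a1 -0.10 to 0.58. For NT-KO against WT in females the ranges of log2 fold changes were Sult1a1 -0.082 to 0.15, Sult1b1 -0.092 to 0.29, Sult1c2 -0.11 to 0.38, Sult1d1 -0.11 to 0.14, Sult2a1 -1.35 to 1.10, Sult5a1 -0.59 to 0.037. For NT-KO against WT in males the ranges of log2 fold changes were Sult1a1 -0.081 to 0.32, Sult1b1 -0.40 to 0.42, Sult5a1 -0.39 to 0.96.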
